A study of Sus scrofa with 36 samples.

Results

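Of 2038 long noncoding RNA (lncRNA) genes counted in neonatal pig hearts, 34 were lower at postnatal day 28 (P28) than at day 1 (P1). They were chosen by their levels in CPM, which here are counts scaled to the total of the reads counted on the genes of the deposited table: a lncRNA was taken where the mean of the 3 P1 libraries was at least 2 CPM and at least 2 times the mean of the 3 P28 libraries. The 9815 genes in the table lie on chromosomes 1, 2, 6 and 13, and the rest of the genome, including part of chromosome 2, was not analysed here. CPM values and shares of counts are therefore relative to this part of the genes. The hearts came from normally fed domestic Yorkshire pigs at P1, P3, P7 and P28, and the 12 libraries used were the total RNA libraries that CD Genomics sequenced, 3 at each age, each labelled as a separate sample. The labels name no treatment or transgene and give age as the difference between the groups, and what else differed between the animals of different ages cannot be told apart from age. Libraries are named by age and by the number in the column name, as in P1_4 for replicate 4 of P1. As the P1 and P28 libraries chose the lncRNAs, the difference between these ages is described without a test, and P3 and P7 were compared with each other only.

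lncRNAs are transcripts that do not code for a protein. Many are made at low levels in few tissues or stages, and some act at their own locus on neighbouring genes, for example by recruiting chromatin proteins, whereas others act elsewhere in the cell or have no known role. The weeks after birth, in which heart muscle cells of mammals leave the cell cycle and grow in size instead, are a period of broad change in cardiac gene expression. None of the 34 lncRNAs has a gene symbol, so they are named by Ensembl identifiers, and what each of them does is not known from the labels or the files.

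Of the 339 lncRNAs at 2 CPM or more at P1, the 34 are 10.03%, whereas 61 lncRNAs, 18.0% of 339 at 2 CPM or more at P28, met the same rule in the opposite direction. Among protein-coding genes, 237 of 4129 (5.74%) were lower at P28 by the same rule and 154 of 4105 (3.75%) were higher. The 34 lncRNAs were spread unevenly over the chromosomes, with 16 of 86 lncRNAs at 2 CPM or more at P1 on chromosome 2, 6 of 77 on chromosome 1, 6 of 96 on chromosome 6 and 6 of 80 on chromosome 13. Some of the 16 lie close together, among them 4 within 98.1 kb, so they may not be separate loci. At the edge of the rule, ENSSSCG00000048961, ENSSSCG00000043642 and ENSSSCG00000045992 were just inside with P1 means 2.02, 2.06 and 2.07 times the P28 means, and ENSSSCG00000041980, ENSSSCG00000045449 and ENSSSCG00000050423 were just outside with 1.97, 1.93 and 1.92 times. At the edge of the level, ENSSSCG00000041911 (2.09 CPM at P1), ENSSSCG00000041366 (2.17 CPM) and ENSSSCG00000049733 (2.19 CPM) were inside and ENSSSCG00000046915 (1.92 CPM), ENSSSCG00000045494 (1.88 CPM) and ENSSSCG00000047314 (1.88 CPM) were outside. All 34 passed the filter, which asked for 10 or more counts in 3 or more libraries, and 33 of them would have passed it on their P3 and P7 libraries alone.

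The libraries held 8887176 to 14883849 counts on the genes of the table, and the median count of the 34 lncRNAs per library was 31.5, so single values of most of them rest on few reads. The genes named Metazoa_SRP, which stand for copies of the abundant RNA of the signal recognition particle, took 7.09% to 19.7% of these counts. Defining cardiomyocyte genes were present in all libraries, with 10 of 17 listed markers in the table and a summed level of 93619 to 101127 CPM at P1 and 99006 to 107885 CPM at P28. Of these 10, 2 were lower at P28 than at P1 (ACTC1 -0.60 and CKMT2 -0.78, log2) and 2 were higher (CKM 1.54 and MYBPC3 0.57). Only 2 of 10 fibroblast markers were in the table, TCF21 and FBN1, and both were lower at P28 than at P1. Their summed level was 3273 to 4079 CPM at P1, 1995 to 2805 CPM at P3, 3628 to 4548 CPM at P7 and 933 to 1161 CPM at P28. Of 17 genes of dividing cells 10 were in the table, and 7 of them were lower at P28 than at P1, by the call that 12.5% of protein-coding genes passed as lower and 9.91% as higher. Their summed level was 271 to 393 CPM at P1, 239 to 537 CPM at P3, 892 to 1263 CPM at P7 and 152 to 280 CPM at P28. The epicardial marker TBX18 and the erythroid marker TFRC were lower at P28 as well, whereas of 5 endothelial markers 1 was lower and 1 higher, of 2 leukocyte markers 1 was higher, and the pericyte marker PDGFRB was not called. None of the Schwann cell and neuron markers and none of 23 lncRNAs known by name in mammals were in the table by symbol. The part of these markers in the levels of the lncRNAs was not tested, and in bulk heart tissue fewer cells of a type and less RNA per cell cannot be told apart.

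The 34 lncRNAs together took 799, 550 and 679 CPM in P1_4, P1_5 and P1_6. They took 536, 634 and 502 CPM at P3, 488, 557 and 401 CPM at P7, and 284, 268 and 219 CPM at P28. The P28 libraries were thus below all libraries of the other ages, and P1, P3 and P7 overlapped. One gene, ENSSSCG00000050649, held 75.3% of the summed P1 level and 82.1% of the summed P28 level. Without it, the sum was 158 to 172 CPM at P1, 122 to 161 CPM at P3, 129 to 153 CPM at P7 and 41.8 to 51.4 CPM at P28. All lncRNAs together, in contrast, took 3.35% to 3.93% of the counts at P1 and 4.27% to 5.36% at P28. In 30 of the 34 lncRNAs the 3 P28 values were all below the 3 P1 values, which held for 17.4% of the 339 lncRNAs at 2 CPM or more at P1. As the rule used these libraries, nothing is read from this count. The other 4, whose P1 and P28 libraries overlapped, were ENSSSCG00000043642, ENSSSCG00000044082, ENSSSCG00000042063 and ENSSSCG00000047115.

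**Figure D1:**
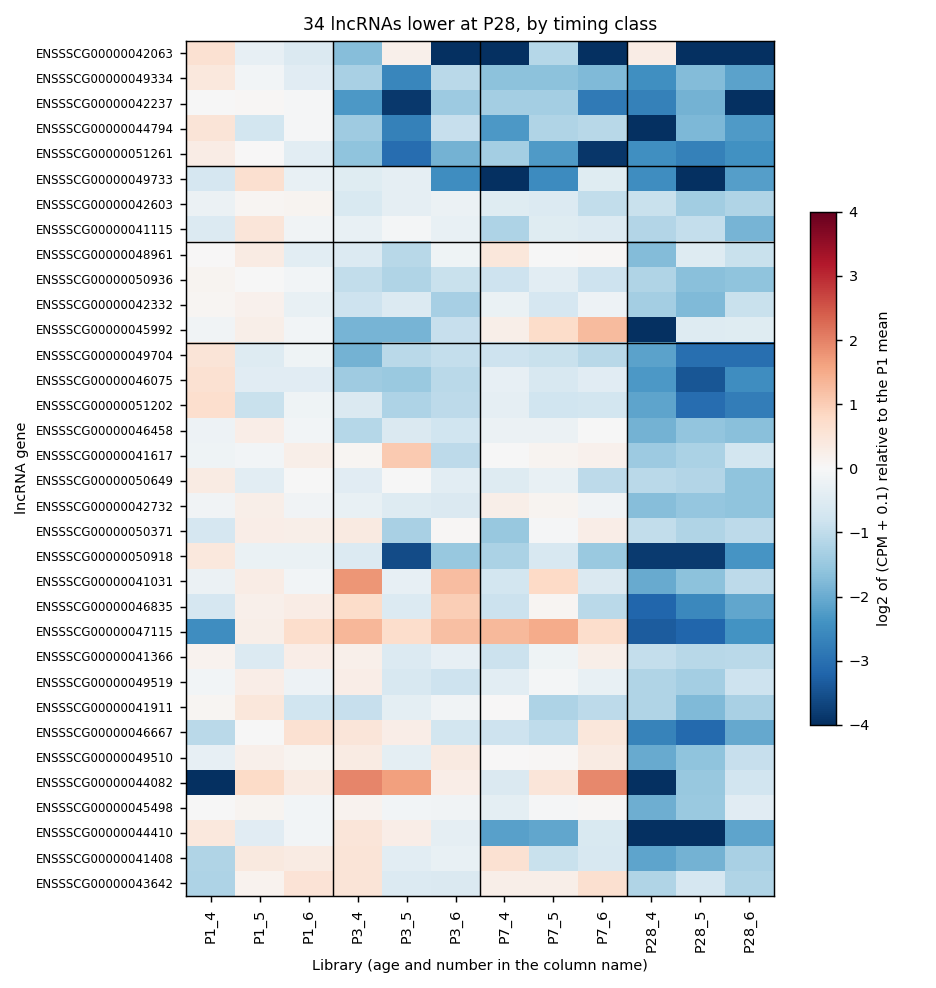
Level of each of the 34 lncRNAs (rows) in each of the 12 libraries (columns), as the log2 of CPM + 0.1 relative to the mean of the 3 P1 libraries, with colours ending at 4 and -4. Horizontal lines separate the timing classes, from top to bottom below the midpoint at P3 and P7, below it from P7, below it at P3 only, and above it at both, and the P28 columns are blue for nearly all rows.

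ENSSSCG00000050649 (chr2:1381838-1384446, positions as the gene table gives them) had by far the highest level per length, at 228 CPM per kb of transcript at P1, against 5.21 CPM per kb for the next, ENSSSCG00000048961, and a median of 0.850 CPM per kb over the 34. Its level was 641, 379 and 507 CPM at P1, 375, 508 and 380 CPM at P3, 358, 417 and 248 CPM at P7 and 239, 226 and 168 CPM at P28. The means were 509 ± 131, 421 ± 75.4, 341 ± 85.6 and 211 ± 37.8 CPM (SD, n = 3 at each age), so that P28 was at 41.4% of P1 and the libraries of P1, P3 and P7 overlapped. Between P3 and P7 its log2 fold change was -0.42 (SE 0.24), and this did not pass the threshold (unadjusted p = 0.106, adjusted p = 0.366 in edgeR's quasi-likelihood test with Benjamini-Hochberg adjustment over all genes). In the order of genes in the RefSeq table, this gene lies after MRPL23 and LOC110259183 and before LOC110259218 and LOC110259219, which are followed by IGF2, a fetal growth factor. In mammals this interval holds the imprinted lncRNA H19, which is abundant in fetal tissue. The sources used here give ENSSSCG00000050649 no such name, and IGF2 itself was not analysed here.

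To describe the timing, each lncRNA was placed by whether its mean at P3 and at P7 lay above or below the geometric midpoint between its P1 and P28 means (0.1 CPM added). At both ages 22 of the 34 lay above the midpoint, so that on the log scale most of their difference from P1 lay between P7 and P28. Another 5 lay below it at P3 and P7, 3 lay above it at P3 and below it at P7, and 4 lay below it at P3 but above it at P7. On the CPM scale, with the arithmetic midpoint, 14 lay above the midpoint at both ages, 9 below it at both and 5 below it from P7 only. ENSSSCG00000049704, for example, had means of 14.2, 7.34 and 2.16 CPM at P1, P7 and P28, so that in CPM more of its fall lay before P7 than after it. The median level of the 34 was 74.1% of P1 at P3, 74.6% at P7 and 32.6% at P28, whereas the 339 lncRNAs at 2 CPM or more at P1 had medians of 109%, 114% and 108%. Below their P1 mean were 26 of the 34 at P3 and 25 at P7, and 5 were at or above it at both ages. As a level between P1 and P28 is partly fixed by the rule, which takes genes with a high P1 mean and a low P28 mean, these counts are a description. The largest of the 3 falls between successive ages lay between P7 and P28 for 28 of the 34, which the choice of a low P28 mean favours, and for 167 of the 339 (49.3%). For the 34 it lay between P1 and P3 in 5 cases and between P3 and P7 in 1 (on the log scale), over intervals that differ in length.

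**Figure D2:**
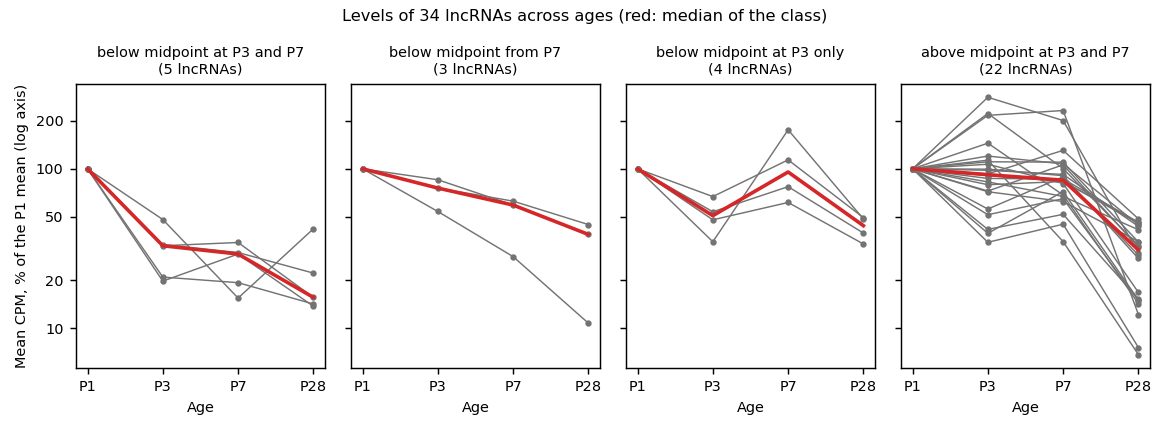
Mean level at each age as a percentage of the P1 mean, on a log axis, for each of the 34 lncRNAs (grey lines, mean of 3 libraries) and the median of each timing class (red), with the classes in separate panels. The 5 lncRNAs of the left panel drop early, by P3, and the 22 of the right panel differ most from P1 at P28.

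Among the 22 lncRNAs that stayed above the midpoint until P7, ENSSSCG00000042732 (chr2:25148212-25163416) had 13.8, 17.9 and 13.7 CPM at P1, 12.4, 10.5 and 10.1 CPM at P3, 17.9, 16.5 and 13.8 CPM at P7 and 4.62, 5.12 and 4.94 CPM at P28. The P28 libraries were close to each other and below all others. ENSSSCG00000046667 (chr6:23328316-23333260) had 9.41, 19.6 and 30.4 CPM at P1, 28.1, 23.7 and 11.8 CPM at P3, 11.07, 9.72 and 27.3 CPM at P7 and 3.00, 2.20 and 4.75 CPM at P28. Its libraries varied by more than 2-fold within each of P1, P3 and P7, and those of P28 were again below all others. ENSSSCG00000049519 (chr2:145987336-145992830) had 6.18, 8.16 and 5.90 CPM at P1, 3.74 to 8.08 CPM at P3, 5.06 to 6.38 CPM at P7 and 2.60 to 3.76 CPM at P28. The highest P28 library of this gene was above the lowest P3 library.

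ENSSSCG00000047115 (chr2:130520823-130570762) was higher at P3 and P7 than at P1 before it was low at P28. It had 1.21, 8.45 and 11.8 CPM at P1, 18.1, 11.7 and 16.7 CPM at P3, 17.9, 20.2 and 11.8 CPM at P7 and 0.616, 0.708 and 1.29 CPM at P28. The low value of P1_4 overlapped with P28, and the P3 and P7 means were 217% and 232% of the P1 mean. ENSSSCG00000044082 (chr13:20143730-20484613) had a like course, with 0, 4.26 and 3.08 CPM at P1, 2.96 to 9.81 CPM at P3, 1.62 to 9.63 CPM at P7 and 0, 0.787 and 1.38 CPM at P28. In P1_4, which had the largest total count, it had no read, so that its P1 mean of 2.45 CPM rests on 2 libraries.

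The lowest P28 levels relative to P1 were those of ENSSSCG00000044410 (6.80% of the P1 mean) and ENSSSCG00000050918 (7.54%). ENSSSCG00000044410 (chr13:142133490-142140431) had 3.96, 2.09 and 2.66 CPM at P1 and 4.13, 3.49 and 2.26 CPM at P3. At P7 it had 0.573, 0.607 and 1.86 CPM, and at P28 it had no read in P28_4 and P28_5 and 0.593 CPM in P28_6. The P7 libraries were below all P3 and P1 libraries. ENSSSCG00000050918 (chr2:114936035-115022993) had 3.29, 2.02 and 2.00 CPM at P1, 0.113 to 1.63 CPM at P3, 0.810 to 1.52 CPM at P7 and 0.0770 to 0.396 CPM at P28. Its P3 and P7 libraries lay below all P1 libraries. ENSSSCG00000049733 (chr1:134227742-134238717) had 1.34, 3.47 and 1.75 CPM at P1, 0.311 to 1.69 CPM at P3, 0 to 1.54 CPM at P7 and 0 to 0.396 CPM at P28, and thus lay above the midpoint at P3 and below it at P7.

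ENSSSCG00000045992 (chr6:117528519-117560369) was low at P3 and on average higher at P7 than at any other age. It had 5.04, 6.499 and 5.07 CPM at P1, 1.44, 1.46 and 2.88 CPM at P3, 6.49, 9.26 and 13.4 CPM at P7 and 0.231, 3.86 and 3.96 CPM at P28. The 3 P7 libraries did not overlap with those of P3 or P28, and P28_4 was far below the other P28 libraries. Without P28_4, without P1_5 or with medians in place of means this gene no longer met the rule. Of the other lncRNAs that were below the midpoint at P3 only, ENSSSCG00000042332 had 4.50, 2.42, 3.47 and 1.78 CPM on average at the successive ages, ENSSSCG00000050936 2.95, 1.41, 1.81 and 0.996 CPM, and ENSSSCG00000048961 2.28, 1.53, 2.59 and 1.13 CPM. ENSSSCG00000042063 (chr2:47328606-47359507) was placed among the early group by its means, but its libraries disagreed. It had 7.06, 3.68 and 3.08 CPM at P1, 1.35, 5.29 and 0 CPM at P3, 0, 2.05 and 0.0810 CPM at P7, and 5.62 CPM in P28_4 against 0.0787 and 0.0989 CPM in the other P28 libraries. It had 0 counts in P3_6 and in P7_4, so each age after P1 held at least 1 library near 0.

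P3 against P7 was the one comparison of ages whose libraries the rule did not use. Following the thresholds of the study, a gene counted as called where the unadjusted p did not exceed 0.05 and the log2 fold change exceeded 0.5 in either direction. Of the 34 lncRNAs, 3 were lower at P7 than at P3 and 1 was higher, 4 in all, whereas 13% of the 5526 genes tested were called, 6.46% lower and 6.51% higher. At an adjusted p under 0.05, 0 of the 34 were called by edgeR, against 2.21% of all genes, 1 was called by DESeq2, and 5 had an unadjusted p under 0.05 by edgeR. The median log2 fold change was -0.13 for the 34 and -0.02 for all genes tested. The share called among the 34 was thus near that of all genes. The count of higher lncRNAs was 2 with DESeq2, no filter on low counts, only the 2 ages or the replicate block, 2 also without P1_4, P3_4, P3_5 or P28_5, and 3 without P7_5. The 357 genes called lower among all genes became 175 without P3_5 and 591 without P3_4.

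ENSSSCG00000045992 had the smallest p of the 34, with a log2 fold change of 2.23 (SE 0.64, unadjusted p = 0.00397, adjusted p = 0.0900 by edgeR). This was the gene that DESeq2 called (log2 fold change 2.26, adjusted p = 0.00935). Its 3 P7 libraries were all above its 3 P3 libraries. ENSSSCG00000046835 was lower at P7, changing by -1.19 on the log2 scale (SE 0.43, adjusted p = 0.169 by edgeR). ENSSSCG00000041031 had -1.24 (SE 0.48, adjusted p = 0.184 by edgeR), and ENSSSCG00000044410, which did not overlap between P3 and P7, had -1.74 (SE 0.68, adjusted p = 0.188 by edgeR). ENSSSCG00000041031 (chr2:117505808-117594533) had 11.8, 2.701 and 8.25 CPM at P3 and 2.00, 5.999 and 2.27 CPM at P7, so the ages overlapped. ENSSSCG00000046835 (chr2:117787137-117791157) had 4.81, 1.91 and 5.68 CPM at P3 and 1.53, 3.04 and 1.30 CPM at P7, which overlapped as well. P3_5 was the low library at P3 and P7_5 the high library at P7 for both. Both lie within or across the RefSeq gene NREP, which codes for the neuronal regeneration related protein and was not analysed here. In the table they lie 193 kb apart, and whether they belong to 1 transcript was not tested. The count of lower lncRNAs fell from 3 to 1 without P3_4 or without P3_6 and to 0 without P7_4. ENSSSCG00000042732 had a p of 0.0240 by edgeR but a log2 fold change of 0.45 (SE 0.18), under the threshold, and was higher at P7 in all 3 libraries than at P3.

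**Figure D3:**
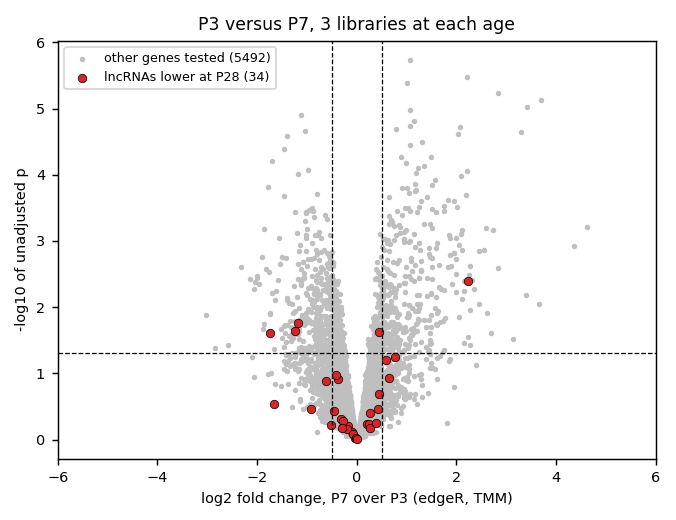
Log2 fold change from P3 to P7 (horizontal axis) against -log10 of the unadjusted p from edgeR (vertical axis) for the 34 lncRNAs (red) and the 5492 other genes tested (grey), with dashed lines at the thresholds. Of the red points, 1 lies beyond the thresholds on the right and 3 on the left.

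Along the chromosomes, 14 of the 34 lncRNAs (41.2%) lay in 5 groups of neighbours, in which the gap between one and the next was at most 100 kb. Without P1_5, ENSSSCG00000041115, ENSSSCG00000041911, ENSSSCG00000041408, ENSSSCG00000043642 and ENSSSCG00000048961 of these groups no longer met the rule. Only the largest group, on chromosome 2, and the group on chromosome 1 then kept 2 or more of the 34. Of the 305 other lncRNAs at 2 CPM or more at P1, 8 (2.62%) lay within 100 kb of any of the 34. How many of the 305 lay within 100 kb of each other was not counted, so these percentages do not show how unusual the grouping is. Neighbouring annotated lncRNAs can be pieces of 1 transcript, so their values are not independent. In RefSeq, the lncRNAs of every group but the largest overlap a shared gene. These genes are LOC110256592 on chromosome 1, LOC106510465 on chromosome 6 and LOC106508546 on chromosome 13, all listed as protein-coding. For the pair on chromosome 2 it is LOC106509375, a lncRNA. The 14 may thus be fewer separate loci.

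The largest group, chr2:115146974-115245117, held ENSSSCG00000049334, ENSSSCG00000042237, ENSSSCG00000044794 and ENSSSCG00000051261 within 98.1 kb. All 4 were among the 5 lncRNAs that were below the midpoint at both P3 and P7. Their summed level was 18.0, 13.3 and 12.5 CPM at P1 and 4.42, 1.46 and 5.84 CPM at P3. It was 4.58, 4.78 and 3.16 CPM at P7 and 1.85, 3.54 and 1.98 CPM at P28. The highest library after P1 was thus below the lowest P1 library by more than 2-fold. Single genes had the same course, with means of 4.66, 1.56, 1.39 and 1.03 CPM at P1, P3, P7 and P28 for ENSSSCG00000049334, and of 4.61, 0.908, 1.34 and 0.632 CPM for ENSSSCG00000042237. ENSSSCG00000044794 had 2.74, 0.900, 0.944 and 0.427 CPM, and ENSSSCG00000051261 had 2.58, 0.539, 0.497 and 0.365 CPM. ENSSSCG00000051261 passed the filter only through its P1 libraries and had 1 to 10 counts per library at P3 and P7, so nothing is read from its P3 to P7 comparison. The other 3 were not called between P3 and P7 (log2 fold changes -0.28 to 0.39, unadjusted p of 0.521 to 0.946 by edgeR).

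The same stretch of chromosome 2 held 6 other lncRNA genes and no protein-coding gene of the table. Of these, ENSSSCG00000041346 passed the filter on counts, and it had 1.95, 0.939 and 1.66 CPM at P1, below the level of the rule. It had 0, 0 and 0.856 CPM at P3, 0.191 to 0.304 CPM at P7 and 0 to 0.0989 CPM at P28. Its mean was 0.285 CPM at P3 against 1.52 CPM at P1. As its P1 libraries, in which it was high, brought it past the filter, nothing is read from its lower values after P1. ENSSSCG00000050918, described above, ends 124 kb before the group and joins it when a gap of 500 kb is allowed. Its P3 and P7 means were 34.5% and 44.9% of P1, and it lay above the midpoint at both ages, unlike the 4 genes of the group. In the RefSeq table, 4 of the 6 lncRNAs of the 34 that overlap no RefSeq gene lie in this group.

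The group on chromosome 1, chr1:2827909-2995860, held ENSSSCG00000049704, ENSSSCG00000046075 and ENSSSCG00000051202, which lie within the uncharacterised RefSeq gene LOC110256592, between T, which codes for the mesoderm factor brachyury, and PDE10A, a phosphodiesterase. Their summed level was 43.3, 19.9 and 24.1 CPM at P1, 10.6, 12.2 and 14.3 CPM at P3, 19.9, 16.7 and 16.8 CPM at P7 and 6.16, 2.99 and 4.05 CPM at P28. The 3 P7 libraries were all above the 3 P3 libraries and below the 3 P1 libraries, by little in the case of P7_4 and P1_5, and P28 was below all others. The 3 genes moved alike, with P3 levels of 41.6%, 39.4% and 51.5% of P1, P7 levels of 51.8%, 72.0% and 64.9%, and P28 levels of 15.3%, 15.02% and 14.8%. The P3 to P7 change of ENSSSCG00000046075 was 0.77 (log2, SE 0.37, unadjusted p = 0.0573 by edgeR) and those of the other two were 0.21 and 0.24, none of them called. P1_4 was the highest P1 library for all 3.

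The group on chromosome 6, chr6:7661402-8106336, held ENSSSCG00000042603, ENSSSCG00000041115 and ENSSSCG00000041911, between DYNLRB2, a dynein subunit, and MAF, a transcription factor. It fell stepwise on average. Its summed level was 11.4, 15.5 and 12.9 CPM at P1, 8.65, 10.7 and 11.2 CPM at P3, 9.26, 8.43 and 6.96 CPM at P7 and 6.54, 5.04 and 5.14 CPM at P28. The P1 libraries were above all others and the P28 libraries below all others, whereas P3 and P7 overlapped. ENSSSCG00000042603, whose body spans most of the region, had means of 8.78, 6.64, 5.50 and 3.92 CPM at the successive ages. ENSSSCG00000046915, which misses the level of the rule at 1.92 CPM, lies within that body and had 1.31, 1.57 and 0.693 CPM at P3, P7 and P28.

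Both remaining groups held 2 lncRNAs. At chr2:25148212-25172549, ENSSSCG00000042732 and ENSSSCG00000048961 overlap by 847 bases, so reads in the overlap cannot be assigned to one of them with certainty, and their summed means were 17.4, 12.5, 18.6 and 6.02 CPM. At chr13:180954087-181038005, between USP25, a ubiquitin protease, and CXADR, the coxsackievirus and adenovirus receptor, ENSSSCG00000041408 and ENSSSCG00000043642 had summed means of 5.63, 5.39, 6.42 and 2.24 CPM. The annotated body of another lncRNA, ENSSSCG00000048207, starts between them and spans ENSSSCG00000043642, and its level was 56.3 CPM at P1 and 53.2 CPM at P28 (log2 fold change -0.06, SE 0.29, adjusted p = 0.904 by edgeR). As the rule chose the pair on the same libraries, the 2 values are not compared with it, and ENSSSCG00000043642 no longer met the rule without P1_5, P1_6, P28_4 or P28_6.

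**Figure D4:**
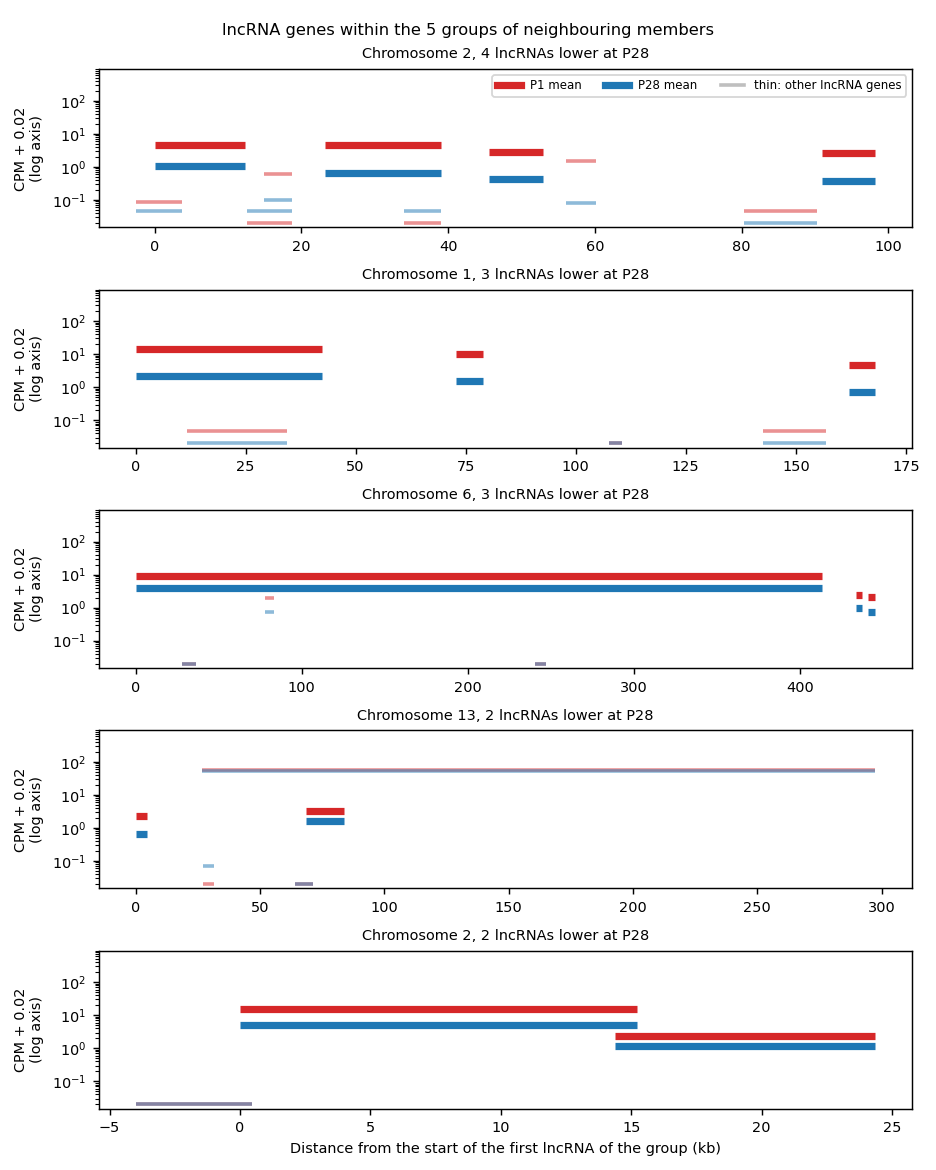
Mean CPM (log axis, 0.02 CPM added) of all lncRNA genes of the table in the 5 groups of neighbouring lncRNAs, against the distance from the start of the first of them (kb), with P1 in red and P28 in blue. Thick bars are the lncRNAs lower at P28 and thin bars are other lncRNA genes, and on chromosome 13 the long thin bars of ENSSSCG00000048207 lie at 56.3 CPM at P1 and 53.2 CPM at P28.

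To ask whether the genes next to the lncRNAs changed in the same direction, the nearest protein-coding gene of the table within 100 kb was taken for each. Such a gene was found for 17 of the 34, of which 8 were within 20 kb and 0 overlapped. Of the other 17, 11 lie on chromosome 2, where the table ends before the end of the chromosome and holds 1337 of 1998 RefSeq protein-coding genes, so their neighbours were only in part analysed here. The 17 lncRNAs had 14 different nearest genes, of which 10 had enough counts. Between P1 and P28, 1 of these 10 was lower and 0 were higher, whereas 12.5% of 4591 protein-coding genes were lower and 9.91% higher. The nearest genes of other lncRNAs were called lower for 30 and higher for 31 of 312. The median log2 fold change of the 10 was -0.30, and that of all protein-coding genes tested was -0.01. As the lncRNAs were chosen on the same P1 and P28 libraries, this difference is a description.

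The gene that was lower was KCTD16, an auxiliary subunit of GABA-B receptors, 6.43 kb from ENSSSCG00000049519. It had 5.44, 6.64 and 3.91 CPM at P1, 5.19, 5.63 and 4.83 CPM at P3, 5.63, 5.85 and 5.51 CPM at P7 and 2.39, 2.83 and 3.26 CPM at P28. The P28 libraries were below all others, with a log2 fold change from P1 of -0.93 (SE 0.26, adjusted p = 0.0292 by edgeR). KCTD16 was at 97.8% of P1 at P3, 106% at P7 and 53.0% at P28, and the lncRNA at 79.5%, 83.3% and 45.5%. The low P28 level of the lncRNA was fixed by the rule, so nothing is read from the likeness at P28. Without P1_5, ENSSSCG00000049519 no longer met the rule. In the RefSeq table the lncRNA lies inside KCTD16, whereas their bodies do not overlap in the deposited table, on which reads were counted. The strand setting of the counting is not given in the sources used here. Whether reads counted on the lncRNA come from a longer transcript of KCTD16 was not tested.

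The other 9 nearest genes were not called in the fit of all 4 ages. LDLRAD3, of the LDL receptor family, next to the pair on chromosome 2, changed by -0.49 on the log2 scale (SE 0.19, adjusted p = 0.0916 by edgeR) and was just under the fold threshold, which it passed in 5 of 17 alternatives (no filter on low counts, only the 2 ages, and without P1_5, P1_6 or P28_4). Leaving out single libraries moved its log2 fold change between -0.67 (without P1_5) and -0.30 (without P1_4, unadjusted p = 0.133 by edgeR), and the unadjusted p was 0.0557 without P28_5 and 0.0549 without P28_6. DKK3, a secreted glycoprotein of the Dickkopf family, had 262, 524 and 677 CPM at P1 and 176, 312 and 376 CPM at P28 (-0.74, SE 0.35, unadjusted p = 0.0560 by edgeR). It passed the call in 6 of 17 alternatives, among them DESeq2 (unadjusted p = 0.0360) and no filter on low counts (unadjusted p = 0.0231 by edgeR), and its log2 fold change ranged from -1.02 without P1_4 to -0.47 without P1_6 and -0.50 without P28_4. CDH8, a cadherin 49.0 kb from ENSSSCG00000046667, had 47.6, 49.9 and 93.2 CPM at P1 and 55.6, 6.69 and 12.5 CPM at P28 (-1.33, SE 0.68, unadjusted p = 0.0733 by edgeR). P28_4 was at the P1 level for CDH8. As the rule chose ENSSSCG00000046667 by its low P28 mean, its P28 values are not set against those of CDH8. The log2 fold change of CDH8 was -2.75 without P28_4, but -0.88 without P28_5 (unadjusted p = 0.209 by edgeR) and -0.99 without P1_6 (unadjusted p = 0.210). The count of lower neighbours rose from 1 to 3 without P28_4. That count was 2 without any 1 of P1_4, P1_5, P1_6, P3_4, P3_6, P7_6 or P28_6.

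Several neighbours were regulators of transcription, and none of them was called. The transcription factor NFIB, 24.8 kb from ENSSSCG00000041617, had a log2 fold change of -0.14 (SE 0.13), MEIS2, a homeobox factor 4.73 kb from ENSSSCG00000049733, one of -0.09 (SE 0.14), and MAF, 0.760 kb from ENSSSCG00000042332, one of -0.16 (SE 0.19). ASXL3, a chromatin protein 10.5 kb from ENSSSCG00000045992, had 0.19 (SE 0.17). Between P3 and P7, where that lncRNA was called higher, ASXL3 had 0.41 (adjusted p = 0.219 by edgeR), under the fold threshold, and 0 of the 10 neighbours were called. MEIS2 had 222 CPM at P1 and 208 CPM at P28. The fall of its neighbouring lncRNA between these ages was fixed by the rule, so it is not set against MEIS2. That lncRNA no longer met the rule without P1_5 or with medians in place of means. DYNLRB2, 81 bases from ENSSSCG00000042603, had -0.08 (SE 0.40), and its sign turned when single libraries were left out. LEKR1, 3.44 kb from ENSSSCG00000045498, had -0.44 (SE 0.31, unadjusted p = 0.184 by edgeR). Adjusted p-values of these 6 genes were between 0.366 and 0.919 by edgeR.

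The RefSeq table, used for gene order only, gave a wider view. Of the 34 lncRNAs, 17 (50%) overlapped a protein-coding gene of RefSeq, 11 overlapped only other kinds of gene, such as lncRNAs, and 6 overlapped none. The share was 40.7% of the 305 other lncRNAs at 2 CPM or more at P1. Of 7 genes that RefSeq places around or across one of the 34 and that were tested, 2 were lower at P28, KCTD16 and RBMS3, beside 12.5% of all protein-coding genes. RBMS3 codes for an RNA-binding protein, and ENSSSCG00000049510 lies inside it in RefSeq but 641 kb from its body in the deposited table. RBMS3 had 143 CPM at P1 and 91.2 CPM at P28, which is -0.66 on the log2 scale (SE 0.15, adjusted p = 0.0117 by edgeR). ADAMTSL1 (-0.52, SE 0.24, unadjusted p = 0.0517 by edgeR), CDYL2 (-0.58, SE 0.32, unadjusted p = 0.0914 by edgeR), CDH8, LEKR1 and LDLRAD3 were not called. ADAMTSL1 passed the call in 8 of 17 alternatives, with an unadjusted p of 0.0447 by DESeq2, 0.0265 with no filter on low counts and 0.0339 with the replicate number as a block in edgeR. Leaving out single libraries moved its log2 fold change between -0.67 (without P1_4) and -0.33 (without P28_4), with -0.40 without P1_6. CDH8 passed it in 4 of 17, with an unadjusted p of 0.0464 with the block in edgeR. CDYL2 passed it in 1 of 17, without P28_4 (-0.82, unadjusted p = 0.0422 by edgeR), and was at -0.30 without P28_6. LEKR1 was at -0.25 without P28_4. The 7 log2 fold changes were all below 0, with a median of -0.58, whereas the median of all protein-coding genes tested was -0.01. Of the 4129 protein-coding genes at 2 CPM or more at P1, 51.2% had a lower mean at P28 than at P1. The lncRNAs were chosen on the same P1 and P28 libraries, and these 7 genes lie around or across them. The 7 are thus not independent of that choice, and nothing is read from their common sign.

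With the genes before, after and around each lncRNA in RefSeq order, 29 different genes were tested. Of these, 3 were lower at P28, KCTD16, RBMS3 and CDH11, and 3 were higher, LSAMP, ZCWPW2 and PRELID2, which is 10.3% in each direction, beside 12.5% lower and 9.91% higher of all protein-coding genes. At an adjusted p under 0.05, 7 of the 29 passed by edgeR, beside 15.8% of protein-coding genes. Gene order in RefSeq does not mean a short distance, and most of the called genes lie far from the lncRNA. CDH11, a cadherin of mesenchymal cells 2.45 Mb from ENSSSCG00000046667, went from 173 to 60.2 CPM (-1.52, SE 0.44, adjusted p = 0.0376 by edgeR). PRELID2, 1.12 Mb from ENSSSCG00000049519, went from 28.2 to 53.9 CPM (0.93, SE 0.17, adjusted p = 0.00408 by edgeR). LSAMP, a neuronal adhesion protein 1.54 Mb from ENSSSCG00000044410, had 0.68 (SE 0.25, adjusted p = 0.0889 by edgeR), and ZCWPW2, 137 kb from ENSSSCG00000049510, had 0.83 (SE 0.37, adjusted p = 0.147 by edgeR). The gene after the chromosome 1 group, PDE10A, 124 kb away, had -0.44 (SE 0.15, adjusted p = 0.0651 by edgeR). USP25, 240.01 kb before the chromosome 13 pair, had 0.45 (SE 0.14, adjusted p = 0.0435 by edgeR) and CXADR, 1.10 Mb after it, had -0.35 (SE 0.22, adjusted p = 0.302 by edgeR). CCNL1, a cyclin 306 kb from ENSSSCG00000045498, had 0.45 (SE 0.13, adjusted p = 0.0351 by edgeR), and TGFBR2, a receptor of TGF-beta 1.71 Mb from ENSSSCG00000049510, had -0.36 (SE 0.11, adjusted p = 0.0462 by edgeR). USP25, CCNL1 and TGFBR2 thus passed the adjusted threshold but not the fold threshold.

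**Figure D5:**
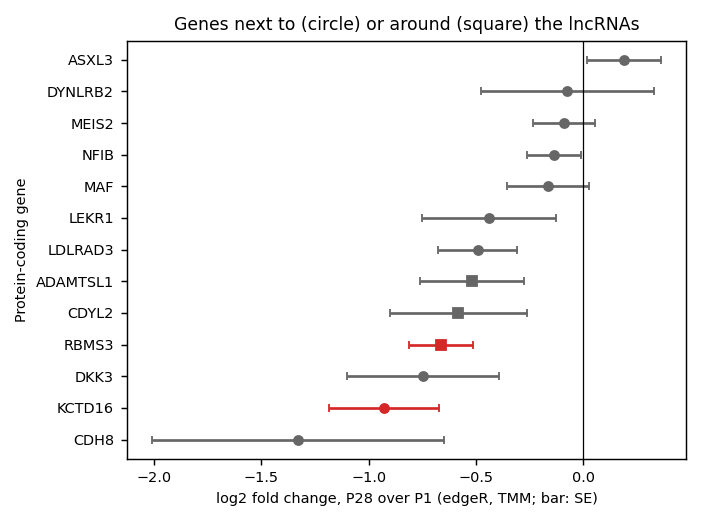
Log2 fold change from P1 to P28 with its SE (edgeR, 3 libraries at each age) of protein-coding genes nearest to one of the 34 lncRNAs (circles) or placed around one by RefSeq (squares), with called genes in red. KCTD16 (-0.93) and RBMS3 (-0.66) are called, and NFIB, MEIS2, MAF and DYNLRB2 lie close to 0.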

How the data were processed

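Total RNA of pig hearts was depleted of ribosomal RNA with RiboZero Gold, and libraries were made with the TruSeq Stranded Total RNA kit per the paper's methods, whereas the labels name a NEBNext Ultra II directional kit. The table that the authors deposited holds raw counts of reads on each gene, with the gene's biotype, position and length. Their processing notes name STAR 2.7.9a, MultiQC 1.11 and Sscrofa10.2. The counting tool and its strand setting are not given in the sources used here. Of 4355 symbols shared with the RefSeq table (Sscrofa11.1), 70.7% start within 1000 bases of it and 99.9% overlap, so positions are those of the file and the build of this file is not certain. RefSeq was used for names and gene order. The table has no strand column, so divergent pairs could not be found. One row without counts was left out. miRNA and circRNA files were not used.

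CPM used the column sum. Counts of the 5526 genes with at least 10 counts in at least 3 libraries were tested in edgeR 4.0.16 (R 4.3.3; limma 3.58.1) by the quasi-likelihood test with TMM, all 4 ages in one fit, and DESeq2 1.42.0 was an alternative. The fit was tested on simulated data. Plots were made in Python 3.11.15 with matplotlib 3.10.9. p-values measure the spread between labelled samples.

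The lncRNAs, marker lists, alternatives and named genes were chosen with earlier results of these data known. Named were the 10 with the highest P1 mean, the 5 lowest at P28 relative to P1, those called between P3 and P7, members of groups of 3 or more, the 10 neighbours with the smallest p, and those at the edges of the rule. Others named in the text were chosen after their values were seen. Alternatives covered library size, filter, normalization, test, replicate block, neighbour definition and leaving out each library. Counts of single genes are few, so the precision of single values is that of counting error plus the spread between 3 animals.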

Additional observations from a re-analysis of the deposited data

How the results depend on the processing

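The number of lncRNAs that met the rule was 34 with TMM-scaled CPM (the same 34), 44 without the Metazoa_SRP genes in the library size and 44 with medians, and 31 to 46 when single libraries were left out. Of the 34, 21 met it under all these settings, and 10 no longer did without P1_5. With a midpoint on the arithmetic scale, 9 lncRNAs were early, 5 passed the midpoint between P3 and P7 and 14 were late. With 1 CPM added, 5 passed it between P3 and P7 and 8 were low at P3 only, and with TMM-scaled CPM 5 passed it between P3 and P7. Leaving out single libraries gave 4 to 6 early, 2 to 4 between, 19 to 23 late and 3 to 7 low at P3 only (7 without P3_4). Gaps of 50 kb and 500 kb gave 4 groups with 11 lncRNAs and 7 groups with 20.

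Between P3 and P7, 33 genes were lower and 89 higher at an adjusted p under 0.05, and 0 and 0 of the 34 (edgeR). Leaving out single libraries moved the lower genes to 175 (without P3_5) to 591 (without P3_4) and the higher to 309 to 390, and the lower lncRNAs to 0 to 3 and the higher to 1 to 3. The higher lncRNAs numbered 2 with DESeq2, with no filter on low counts and with only the 2 ages compared, 2 also without P1_4, P3_4, P3_5 or P28_5, and 3 without P7_5. The lower neighbours numbered 2 with DESeq2 or only the 2 ages compared, 4 with no filter, and 1 to 3 when single libraries were left out. With the neighbours of RefSeq order 3 were lower and 3 higher, and without chromosome 2 0 were lower, both chosen after seeing the data. DYNLRB2 ranged from -0.35 to 0.16 and turned to 0.09 without P1_5, 0.06 without P1_6 and 0.16 without P28_5. The cause of these shifts was not tested.

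With the replicate number as a block, 2 lncRNAs were higher at P7 and 2 neighbours lower at P28. Deviations of same-numbered libraries correlated at -0.19 to 0.33 (18 pairs, median 0.04, 5 over 0.1), and as not every pair exceeded 0.1 and the labels name no shared litter or batch, the numbers were not used as pairs. That 8 of 12 libraries correlated best with their own number is a hint from the data, not the design. A median count of 31.5 limits what can be seen between P3 and P7 for most of the 34.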
